A study of Mus musculus with 16 samples.

Results

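Mouse embryonic fibroblasts (MEFs) with a knockout (KO) of Actg1, the gene of cytoplasmic gamma-actin, were set against MEFs in which the full Actg1 locus was deleted, over every gene of the MEF table with a mean value of at least 1. These were 21589 of the table's 21615 genes, measured in 4 of the series' 16 RNA sequencing libraries, 2 for Actg1 KO and 2 for the locus deletion. The 2 wild-type MEF libraries (genotype wt) are given beside them, so that each difference can be placed against the unedited cells. The series studied transcriptional adaptation, and this pair of genotypes sets a mutant gene that can still be transcribed against cells with no copy of it to transcribe. The labels do not say how either allele was made, how far the deletion extends, whether each genotype is 1 clone, or whether libraries 1 and 2 came from separate cultures. With 1 label per genotype, the allele and the cell line that carries it cannot be told apart. For the same reason a p-value here speaks of the scatter among 4 or 6 libraries, and part or all of that scatter may be technical.

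Gamma-actin and beta-actin are the cytoplasmic actins, and most cells make both. Vertebrates have 4 further actin genes, for the actins of smooth, skeletal and cardiac muscle. In transcriptional adaptation, as described in zebrafish and mouse cells, the decay of a mutant mRNA goes together with a higher output of genes that resemble it in sequence, and an allele that makes no mRNA lacks this response. Actin monomers also govern gene expression in a second way, since they hold the coactivators MRTF-A and MRTF-B (Mkl1 and Mkl2) away from serum response factor (SRF), which drives many cytoskeletal genes.

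The summed values per MEF library lay between 20305511 and 22094490, and the number of reads behind them was estimated at 19260000 to 24470000. Values are normalised read counts, in which 1 read was estimated to be worth 0.879 to 1.095. The estimate came from the pattern of low whole values, with a fit correlation of 0.662 to 0.864 by library. Fibroblast identity was checked with 15 marker genes, of which 14 were in the table. Their summed value was 197550 and 206633 in the KO libraries, 137271 and 151429 in the locus deletion libraries, and 182728 and 183191 in the wild-type libraries. Vimentin, Prrx1, Twist1, Pdgfra and the chains of collagen I were high in all 6 libraries, while Thy1 stayed at or below 22 and Fap at or below 6. Lum and Dcn were high in KO alone. In the locus deletion and wild-type libraries Lum was at 10 or less and Dcn at 17 or less. The sums also covered opposite moves. Mean Col1a1 was 88047.5 in KO and 14167 in wild-type MEFs, and mean vimentin 42531.5 and 128080. Markers of macrophages and blood cells (5 of 11 in the table) summed to 249 and 279 in KO, 531 and 585 in locus deletion and 448 and 411 in wild-type MEFs, with Ptprc at 11 or less in each library. The endothelial list (7 of 10 in the table) summed to 397 and 379 in KO, 112 and 95 in locus deletion and 183 and 170 in wild-type MEFs. Of the 7, 4 were higher in KO than in the locus deletion (Erg, Tek, Pecam1 and Kdr), beside 24.5 percent of all genes tested. Kdr was below wild type in both mutants, at 19 and 25 in KO, 7 and 9 in locus deletion and 96 and 92 in wild-type MEFs. Vwf lay lower in KO, at 39 and 44 against 78 and 59 in the locus deletion, and did not pass the test. Erg, an ETS transcription factor, made up most of the KO sum, at 270 and 237 in KO, 7 and 11 in locus deletion and 38 and 41 in wild-type MEFs (log2 difference 4.70), while Cdh5 was at 19 or less. Whether any other cells contributed RNA was not tested, and in bulk libraries fewer cells of a type and less RNA per cell cannot be told apart.

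Actg1 mRNA followed the labels. It stood at 1004 and 1026 in KO MEFs, at 25 and 15 in locus deletion MEFs, and at 5737 and 5672 in wild-type MEFs. The 3 genotypes did not overlap. KO MEFs had 50.8 times the locus deletion level (log2 difference 5.64, SE 0.194, adjusted p = 1.15e-06), and less than wild-type MEFs (log2 difference −2.49, adjusted p = 5.3e-05). The gene lies on the minus strand at chr11:120345690-120348542 (GRCm38). The small value left in the locus deletion libraries has to be read with the processed pseudogenes of Actg1 in mind. A copy such as Gm12715 matches the Actg1 mRNA at 99.6 percent of aligned bases. Gm12715 itself was listed at 3 and 1 in KO, 0 and 0 in locus deletion and 33 and 34 in wild-type MEFs. Whether reads of such copies make up the value left was not tested. How the authors' counting treated reads that match several genes is not given in the sources used here.

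The actins that could share sequence with the Actg1 transcript are shown by a window of 72 bases of their coding sequence (GENCODE M21, GRCm38), which begins 120 codons before the end of each. Capitals mark bases that differ from Actg1. Over the whole coding sequence, identity to Actg1 was 88.7 percent for Actb, 83.8 percent for Acta1, 82.5 percent for Actg2 and 81.6 percent for Acta2. Actb is thus the nearest relative by bases, and Actg2 lies between the other muscle actins.
Actg1: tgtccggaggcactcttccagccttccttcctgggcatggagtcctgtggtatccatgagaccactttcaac
Actb: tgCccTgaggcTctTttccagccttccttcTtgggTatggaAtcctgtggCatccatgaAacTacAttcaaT
Actg2: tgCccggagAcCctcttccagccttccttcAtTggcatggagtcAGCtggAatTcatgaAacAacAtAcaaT
Acta1: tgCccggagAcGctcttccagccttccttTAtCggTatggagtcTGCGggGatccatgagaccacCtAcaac
Acta2: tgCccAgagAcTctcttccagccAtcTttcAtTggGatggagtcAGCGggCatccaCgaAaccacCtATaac

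Among these relatives, Actg2 alone was higher in KO than in locus deletion MEFs, and 2 others were lower. Actg2, the gamma-actin of smooth muscle of the gut and bladder (chr6:83512905-83536265), stood at 4645 and 5064 in KO MEFs, 94 and 98 in locus deletion MEFs and 70 and 92 in wild-type MEFs. The KO libraries stood far above the other 4, which lay close together. The KO level was 50.6 times the locus deletion level (log2 difference 5.64, SE 0.134, adjusted p = 3.11e-07), while locus deletion and wild-type MEFs did not pass the test (0.26, adjusted p = 0.229).

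Acta2, the alpha-actin of vascular smooth muscle and of activated fibroblasts (chr19:34241090-34255590), took another order. Its values were 26533 and 28811 in KO MEFs, 52609 and 55623 in locus deletion MEFs and 15819 and 16328 in wild-type MEFs. Both mutants were thus above wild type, and the KO was below the locus deletion (log2 difference −0.97, SE 0.0672, adjusted p = 2.19e-05). With each chromosome centred on its median, the difference was −0.58 (adjusted p = 5.43e-05). Acta1, the skeletal alpha-actin (chr8:123891769-123894751), had 132 and 120 in KO MEFs, 356 and 386 in locus deletion MEFs and 496 and 439 in wild-type MEFs (KO against locus deletion −1.55, SE 0.109, adjusted p = 2.32e-05). Actb, the beta-actin gene (chr5:142903115-142906754), had 113713 and 122792 in KO MEFs, 134305 and 137584 in locus deletion MEFs and 103506 and 100152 in wild-type MEFs. Its KO and locus deletion libraries did not overlap, yet the difference missed the threshold (−0.20, SE 0.0771, adjusted p = 0.0665). It passed when the libraries were scaled by the TMM method (−0.22, adjusted p = 0.0326) and when each chromosome was centred (−0.49, adjusted p = 0.00023). Against wild type, Actb was higher in locus deletion MEFs (0.42, adjusted p = 0.00736) and did not pass in KO MEFs (0.21, adjusted p = 0.06), 2 comparisons that share the wild-type libraries.

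Since Actb and Acta2 make up most of the actin mRNA in these cells, the summed value of the 5 measured actin genes followed them. It was 146027 and 157813 in KO MEFs, 187389 and 193706 in locus deletion MEFs, and 125628 and 122683 in wild-type MEFs. Neither mutant had less actin mRNA in total than wild type by this sum, and the KO sum lay between the other two. A sequence search matched 20 protein-coding genes to the Actg1 mRNA, other actins included, and 12 were measured, among them Actb, Actg2, Acta1 and Acta2. Of the 12, 3 were higher in KO (Actg2, Actr1b and Actr3), 5 were lower (Lrrc58, Actr1a, Actr2, Acta2 and Acta1), and the median log2 difference was −0.33. Over all genes tested, 45.2 percent passed the test, 24.5 percent higher in KO and 20.7 percent lower, with a median of 0.07. Actr2 and Actr3 encode the actin-related subunits of the Arp2/3 complex, and Actr2 stood at 4688 and 4748 in KO, 9017 and 8831 in locus deletion and 6640 and 6870 in wild-type MEFs (log2 difference −0.92, SE 0.052, adjusted p = 8.5e-06). Lrrc58 turned round when each chromosome was centred (0.51, adjusted p = 4.36e-05, against −0.45 before), and Actr1a did not pass there. The call of Actr1b was lost without KO library 1 (adjusted p = 0.0611), KO library 2 (0.165), locus deletion library 1 (0.12) and locus deletion library 2 (0.0796), that of Actr3 without KO library 2 (0.0901), and that of Actr1a without KO library 1 (0.0619). Of 63 Actg1-like pseudogenes, 13 were measured, all at 35 or less in the KO and locus deletion libraries, with 2 higher in KO and 1 lower.

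**Figure D1:**
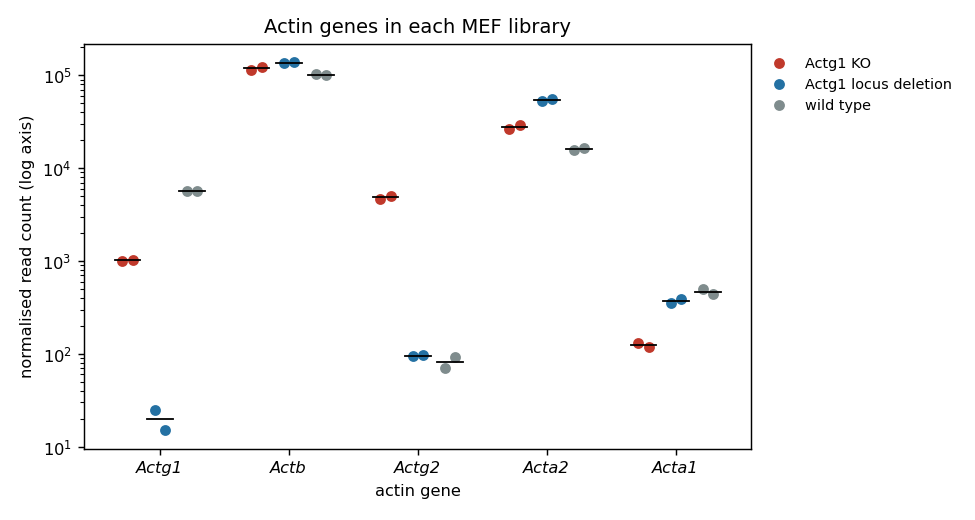
Normalised read counts of the 5 measured actin genes (log axis) in each library, with the groups KO, locus deletion and wild type from left to right. Points are libraries and lines are means of 2; Actg2 stands at 4645 and 5064 in KO against 70 to 98 in the other 4 libraries, and Actg1 at 15 and 25 in the locus deletion.

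The neighbours of Actg1 on chromosome 11 were examined next, as a deletion could touch them directly. Within 250000 bases on either side, 29 genes were measured. Of these, 6 were higher in KO and 4 lower, with a median log2 difference of 0.09. Over all genes tested, 24.5 percent were higher and 20.7 percent lower. Mcrip1, a gene of the ERK pathway's regulation of transcription, stood at 513 and 585 in KO, 291 and 293 in locus deletion and 294 and 283 in wild-type MEFs (0.91, SE 0.0946, adjusted p = 0.000163). Slc38a10, a solute carrier, was at 1886 and 1904 in KO, 1115 and 1230 in locus deletion and 1256 and 1162 in wild-type MEFs (0.69, SE 0.073, adjusted p = 0.000169). In both genes the locus deletion libraries lay with the wild type and the KO libraries above. Bahcc1, whose protein binds chromatin, was at 560 and 691 in KO, 958 and 987 in locus deletion and 1278 and 1201 in wild-type MEFs (−0.64, SE 0.102, adjusted p = 0.00148). The microRNA gene Mir6935, which lies within Actg1 on the same strand and is 1 of the 6 higher genes, was at 6 and 3 in KO, listed at 0 in both locus deletion libraries and at 2 and 0 in wild-type MEFs. Outside Actg1, each measured neighbour was read in both locus deletion libraries.

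Across the whole table, the 2 mutant lines differed widely. Of 21589 genes, 9754 (45.2 percent) passed the test, 5286 higher in KO (24.5 percent) and 4468 lower (20.7 percent). Among 11229 genes whose mean reached 50, 28.5 percent were higher and 34.0 percent lower, and among protein-coding genes 30.6 and 27.3 percent. Large differences were mostly in 1 direction, since 2957 genes (13.7 percent) were higher and 1462 (6.77 percent) lower by at least 2-fold, and 494 (2.29 percent) higher and 48 (0.222 percent) lower by at least 16-fold. Without KO library 1 the test called 3024 higher and 2680 lower, and without KO library 2 it called 2946 and 2790. Scaling without the genes that hold over 1 percent of a library moved the split to 6249 higher and 3967 lower, and the median over all genes to 0.16.

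The KO line stood apart from the other two. KO against wild type gave 8581 calls (39.7 percent), and locus deletion against wild type gave 4755 (22.0 percent). These comparisons share the wild-type libraries. Over the same 11229 genes, log2 values correlated at 0.842 to 0.847 between KO and locus deletion libraries, at 0.891 to 0.894 between KO and wild type, at 0.949 to 0.954 between locus deletion and wild type, and at 0.994 to 0.996 within a group. The KO libraries also listed fewer genes at 0, 496 and 491, against 1520 and 1464 in locus deletion and 1028 and 1169 in wild-type libraries.

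**Figure D2:**
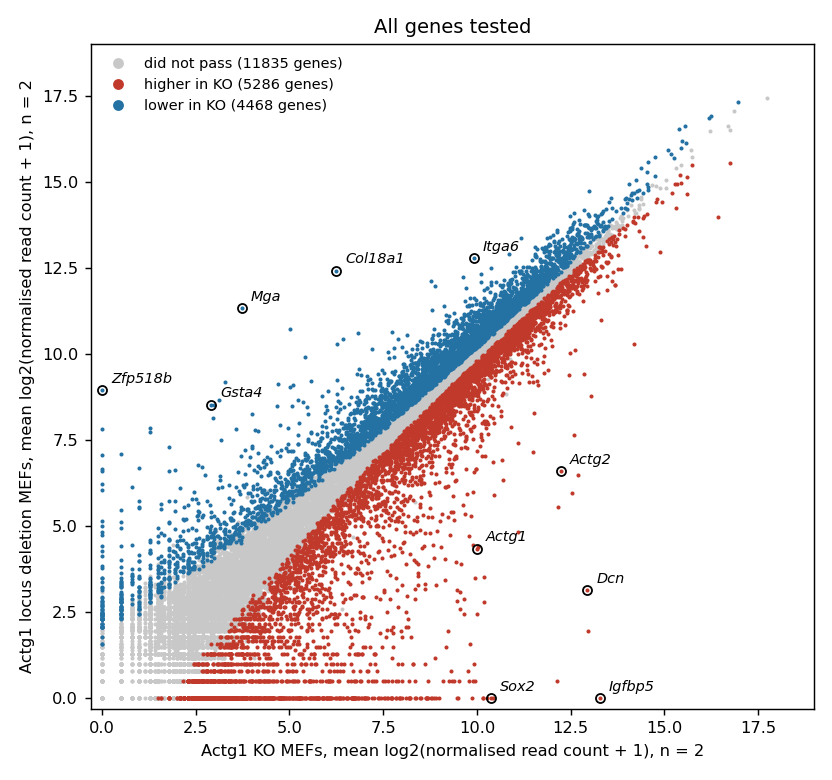
Mean log2(value + 1) of each tested gene in KO (horizontal axis) and locus deletion MEFs (vertical axis), each the mean of 2 libraries. Red points are the 5286 genes higher in KO, blue points the 4468 lower and grey points the 11835 that did not pass; the circled genes include Igfbp5 and Sox2 at the lower edge, listed at 0 in the locus deletion, and Zfp518b at the left edge, listed at 0 in KO.

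The genes with the largest rise in KO were nearly silent in locus deletion MEFs. Igfbp5, a secreted binding protein of insulin-like growth factors, led with 9613 and 10257 in KO, 0 and 0 in locus deletion and 32 and 24 in wild-type MEFs, at least 3310-fold higher than in the locus deletion (adjusted p = 4.95e-08). Lower bounds of this kind put 3 reads per library in place of 0 and cover counting error only. Ptprd, a receptor tyrosine phosphatase, had 1349 and 1397 in KO, 0 and 0 in locus deletion and 427 and 398 in wild-type MEFs, at least 457-fold higher. Sox2, a transcription factor of stem cells and neural progenitors, had 1326 and 1306 in KO, 0 and 0 in locus deletion and 44 and 32 in wild-type MEFs, at least 438-fold higher. Of these, Ptprd was well above the floor in wild-type MEFs, while Igfbp5 and Sox2 were low there.

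Others in the top 15 included Fzd3, a WNT receptor, at 944 and 935 in KO, 0 and 0 in locus deletion and 201 and 189 in wild-type MEFs. Chil1, a chitinase-like secreted protein, was at 1153 and 1122 in KO, 0 and 0 in locus deletion and 0 and 1 in wild-type MEFs. Mef2c, a transcription factor of muscle and heart, was at 948 and 834 in KO, 1 and 0 in locus deletion and 10 and 16 in wild-type MEFs. Each of the 15 had both KO libraries above both locus deletion libraries, as the rule that named them required.

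The largest falls included genes that both other lines expressed. Mga, a MAX-binding protein that is part of a variant Polycomb complex, PRC1.6, stood at 15 and 10 in KO, 2485 and 2681 in locus deletion and 2130 and 2159 in wild-type MEFs, 207-fold lower in KO (log2 difference −7.60). Zfp518b, a zinc finger gene, was at 0 and 0 in KO, 481 and 509 in locus deletion and 170 and 161 in wild-type MEFs, at least 166-fold lower. Col18a1, which encodes a basement membrane collagen and the source of endostatin, was at 81 and 70 in KO, 5278 and 5715 in locus deletion and 4351 and 3846 in wild-type MEFs, 72.8-fold lower (adjusted p = 5.12e-08). For these 3 genes, the locus deletion was near or above the wild-type level. Chmp2b, a subunit of the ESCRT-III membrane-cutting complex, had 38 and 26 in KO, 1623 and 1785 in locus deletion and 1692 and 1708 in wild-type MEFs. Gsta4, a glutathione transferase, had 7 and 6 in KO, 355 and 384 in locus deletion and 50 and 55 in wild-type MEFs (−5.63), so here the locus deletion stood above both other lines.

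A count of genes lost in a single line places these falls. Genes at 1 or less in both libraries of one line and at a mean of at least 50 in both other lines numbered 8 for KO, 18 for locus deletion and 0 for wild type. The 8 lost in KO included Zfp518b, Akip1, which binds protein kinase A, and Nespas, a non-coding transcript antisense to the imprinted Gnas locus, whose reads cannot be told from those of its partner unless the counting used strand. The 18 lost in the locus deletion included Ptprd, Fzd3, Etv1, an ETS transcription factor, and Trim25, a ubiquitin ligase of the antiviral response. Conversely, 44 genes were at 50 or more in both libraries of a single line and at 1 or less in the other 4. Each of the 44 was a gene of the KO line.

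Genes on some chromosomes differed together. On chromosome 16 the median log2 difference between KO and locus deletion was −0.97 over 349 genes with a mean of at least 50, with 28 higher and 280 lower, and on chromosome 2 it was −0.63 over 891 genes, with 64 higher and 665 lower. Chromosome 4 went the other way, with a median of 0.59 over 676 genes, 504 higher and 27 lower. The side of the difference was not the same: on chromosomes 16 and 2 the KO medians against wild type were −0.85 and −0.53 while the locus deletion medians were 0.14 and 0.11, whereas on chromosome 4 they were 0.09 for KO and −0.49 for the locus deletion. Taken singly, the KO libraries had medians against the locus deletion mean of −0.98 and −0.95 on chromosome 16. On chromosome 2 these were −0.66 and −0.62, and on chromosome 4 they were 0.58 and 0.60. Against the wild-type mean on chromosome 4, the locus deletion libraries had −0.53 and −0.45, and the KO libraries 0.07 and 0.1.

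The shift ran along the whole of chromosomes 2 and 4. Cut into 4 equal numbers of genes by position, medians lay between −0.68 and −0.61 on chromosome 2 and between 0.49 and 0.62 on chromosome 4, while chromosome 16 had −1.12, −1.11, −0.33 and −1.10. Chromosomes 18, 19, 9 and 17 had medians of −0.42, −0.41, −0.29 and −0.27 and chromosome 5 had 0.28, and the others lay between −0.11 and 0.16. Chromosome 11, which carries Actg1, was among the others. DNA copy number was not measured. An alternative chosen after seeing these medians centred each library on its chromosome's median. Its value is given beside the first for genes named below on chromosomes 2 and 16 that were lower in KO. The same was done for genes of chromosome 19 whose value moved most. Not every gene of chromosome 4 that was higher in KO has such a value beside it.

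**Figure D3:**
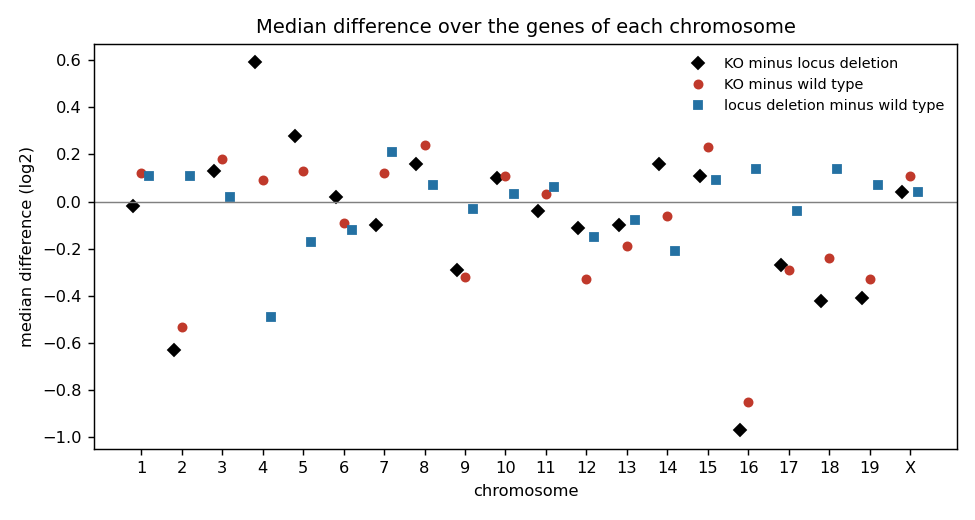
Median log2 difference per chromosome over genes with a mean of at least 50, for KO against locus deletion, KO against wild type and locus deletion against wild type, comparisons that share libraries. Chromosomes 16 and 2 are low in both KO comparisons (−0.97 and −0.63 against the locus deletion), and chromosome 4 is low in locus deletion against wild type (−0.49).

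Targets of SRF and its coactivators tended to be lower in KO than in locus deletion MEFs. Of all genes, 20.7 percent were lower and 24.5 percent higher. Of genes with a mean of at least 50, 34.0 percent were lower and 28.5 percent higher. The counts of this list and of those below are to be read beside these shares. Of the 33 SRF targets measured, 18 were lower and 12 higher, with a median log2 difference of −0.32. Without KO library 1 and without KO library 2 these counts were 12 and 14 lower, and 4 and 5 higher. Srf itself stood at 1568 and 1660 in KO, 3794 and 4099 in locus deletion and 2142 and 1919 in wild-type MEFs (−1.29, SE 0.0753, adjusted p = 9.7e-06; −1.04 after centring). Myl9, the regulatory light chain of smooth muscle and non-muscle myosin, stood at 4248 and 4776 in KO, 11770 and 13191 in locus deletion and 3888 and 3881 in wild-type MEFs (−1.47, SE 0.0784, adjusted p = 6.54e-06; −0.83 after centring). In both genes the locus deletion was above the other lines, which lay nearer each other.

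Ctgf, a secreted matricellular protein that is a target of SRF and of YAP, was at 5652 and 6447 in KO, 12432 and 15741 in locus deletion and 7300 and 6170 in wild-type MEFs (−1.21, SE 0.128, adjusted p = 0.000172). Lmod1, a leiomodin that nucleates actin filaments in smooth muscle, had 152 and 130 in KO, 582 and 650 in locus deletion and 56 and 58 in wild-type MEFs (−2.12, SE 0.129, adjusted p = 1.17e-05). Not all members fell: Cnn1, the smooth muscle calponin, was at 2158 and 2191 in KO, 1207 and 1214 in locus deletion and 513 and 502 in wild-type MEFs (0.84). Among the immediate early genes of the list, Egr1 was higher in KO, at 1602 and 1655, than in the locus deletion, at 556 and 618, with wild-type MEFs at 1967 and 1784 (1.47, SE 0.0795, adjusted p = 6.8e-06). Here the locus deletion was the line that stood apart, below both others.

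SRF binds the CArG box, in which CC and GG enclose a run of A and T. The box was looked for on both strands in RefSeq promoters (GRCm38.p6, 250 bases before to 50 after the start). It occurred in 8 of the 15 lower list members with a promoter in that set, in 1 of the 10 higher ones and in 0 of 2 that did not pass, beside 1.81 percent of 27025 genes. The list was drawn up from genes known to answer to SRF, so this count describes the list. The split between lower and higher members was not tested. Only exact matches within these bases were counted, so a promoter without one may still hold a site of SRF. The promoters of Actg1, Srf, Myl9 and Vcl, the gene of the adhesion protein vinculin, are shown because each carries the box, in capitals. The letters CACGTG, an E-box, are in capitals as well where they occur. Vcl stood at 10187 and 10639 in KO, 16525 and 18432 in locus deletion and 15492 and 14664 in wild-type MEFs (−0.75, SE 0.0702, adjusted p = 9.59e-05).
Actg1, chr11:120348446-120348745, minus strand: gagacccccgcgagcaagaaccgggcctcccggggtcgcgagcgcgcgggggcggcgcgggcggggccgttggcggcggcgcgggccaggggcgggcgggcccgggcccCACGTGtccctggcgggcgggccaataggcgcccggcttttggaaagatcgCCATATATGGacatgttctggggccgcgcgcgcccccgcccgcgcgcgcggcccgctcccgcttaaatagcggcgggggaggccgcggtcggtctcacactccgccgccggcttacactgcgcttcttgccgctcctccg
Srf, chr17:46556113-46556412, minus strand: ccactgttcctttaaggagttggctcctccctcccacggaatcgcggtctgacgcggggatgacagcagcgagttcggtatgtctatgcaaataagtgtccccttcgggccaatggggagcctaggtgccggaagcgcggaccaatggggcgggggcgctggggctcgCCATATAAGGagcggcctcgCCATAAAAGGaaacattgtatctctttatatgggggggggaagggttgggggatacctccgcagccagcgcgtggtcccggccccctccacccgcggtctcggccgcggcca
Myl9, chr2:156775214-156775513, plus strand: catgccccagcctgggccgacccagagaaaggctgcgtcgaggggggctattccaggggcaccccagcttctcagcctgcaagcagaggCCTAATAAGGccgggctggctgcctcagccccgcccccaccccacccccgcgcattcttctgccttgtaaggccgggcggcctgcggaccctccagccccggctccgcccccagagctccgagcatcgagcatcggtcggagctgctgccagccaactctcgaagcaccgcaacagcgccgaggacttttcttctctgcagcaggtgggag
Vcl, chr14:20929148-20929447, plus strand: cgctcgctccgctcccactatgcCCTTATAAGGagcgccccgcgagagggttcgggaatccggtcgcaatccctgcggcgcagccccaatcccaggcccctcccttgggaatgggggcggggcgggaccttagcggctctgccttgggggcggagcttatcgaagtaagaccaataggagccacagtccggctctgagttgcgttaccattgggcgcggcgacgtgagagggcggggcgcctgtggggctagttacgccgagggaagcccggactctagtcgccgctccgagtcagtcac

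Proteins that bind actin monomers or filaments changed in both directions. Among genes with a mean of at least 50, 28.5 percent were higher in KO and 34.0 percent lower. Of the 31 actin-binding genes measured, 13 were higher in KO and 9 lower, with a median of 0.16. Without KO library 1 and without KO library 2, 6 were higher each time. Cotl1, a coactosin that binds filaments, was at 383 and 461 in KO, 61 and 64 in locus deletion and 67 and 75 in wild-type MEFs (2.73, SE 0.149, adjusted p = 7.16e-06). Pfn2, a profilin best known from neurons, was at 1585 and 1608 in KO, 307 and 340 in locus deletion and 618 and 651 in wild-type MEFs (2.30). The abundant forms of the same families went the other way: Pfn1 was at 7683 and 8121 in KO, 11148 and 12406 in locus deletion and 11741 and 11073 in wild-type MEFs (−0.57, adjusted p = 0.00038). Tmsb4x, thymosin beta-4, the main buffer of actin monomers, was at 3801 and 4076 in KO, 10847 and 10577 in locus deletion and 5483 and 5867 in wild-type MEFs (−1.44, SE 0.0621, adjusted p = 2.62e-06). Cfl1, the filament-severing cofilin, was at 7792 and 8414 in KO, 16076 and 16567 in locus deletion and 12845 and 12343 in wild-type MEFs (−1.01; −0.62 after centring).

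The next lists stand beside the same shares, 28.5 percent higher and 34.0 percent lower among genes with a mean of at least 50. Formins and Arp2/3 subunits, which start new filaments, had 9 of 25 higher and 7 lower (median 0.02). Among them Daam2, a formin of WNT signalling, was at 1593 and 1650 in KO, 110 and 129 in locus deletion and 343 and 360 in wild-type MEFs, and the branched-filament activator Wasf3 was at 250 and 263 in KO, 0 and 0 in locus deletion and 4 and 5 in wild-type MEFs. Integrins and adhesion proteins had 9 of 36 higher and 15 lower (median −0.07). Itga6, a laminin receptor subunit on chromosome 2, was at 968 and 970 in KO, 6575 and 7613 in locus deletion and 5253 and 4689 in wild-type MEFs (−2.87; −2.23 after centring). Itga11, a collagen receptor subunit, was at 625 and 717 in KO, 118 and 129 in locus deletion and 48 and 56 in wild-type MEFs (2.43). YAP and TAZ targets had 4 of 23 higher and 12 lower (median −0.33), with 10 lower when either KO library was left out. Ankrd1, a nuclear and sarcomeric ankyrin repeat protein among them, was at 420 and 425 in KO, 849 and 849 in locus deletion and 127 and 136 in wild-type MEFs (−1.01; −0.62 after centring).

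Most collagen chains were higher in KO. Of 27 collagen chains, 18 were higher and 4 lower, with a median log2 difference of 1.43. Col1a1, a chain of the fibrils of collagen I, stood at 84930 and 91165 in KO, 16507 and 15657 in locus deletion and 15137 and 13197 in wild-type MEFs (2.45, SE 0.0814, adjusted p = 9.59e-07). Col1a2, its partner, stood at 29192 and 31323 in KO, 7989 and 8048 in locus deletion and 10576 and 9576 in wild-type MEFs (1.91, SE 0.0681, adjusted p = 1.31e-06). Locus deletion and wild-type levels of both chains lay close together, and the KO libraries far above. Col6a2, of the microfibrils of collagen VI, was at 5704 and 5614 in KO, 606 and 729 in locus deletion and 2428 and 2519 in wild-type MEFs (3.09), and there the locus deletion was also below wild type. The 4 lower chains included Col18a1, above, and the basement membrane pair Col4a1 and Col4a2. Col4a1 was at 9196 and 9532 in KO, 15854 and 16559 in locus deletion and 7497 and 6732 in wild-type MEFs (−0.79, adjusted p = 5.83e-05). Other chains of collagen IV did not share that direction: Col4a6 was among the 15 largest rises, at 984 and 931 in KO, 0 and 1 in locus deletion and 4 and 14 in wild-type MEFs (9.40, adjusted p = 1.02e-05), and Col4a5 was higher too, at 1737 and 1666 in KO, 884 and 875 in locus deletion and 977 and 872 in wild-type MEFs (0.95).

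Small leucine-rich proteoglycans, which coat collagen fibrils, held the sharpest contrasts. Of 11, 7 were higher and 2 lower (median 0.96), and without KO library 1 and without KO library 2, 4 and 5 were higher and 0 lower. Lumican (Lum) stood at 4555 and 4508 in KO, 1 and 0 in locus deletion and 7 and 10 in wild-type MEFs. Decorin (Dcn) stood at 8037 and 7653 in KO, 12 and 5 in locus deletion and 17 and 14 in wild-type MEFs, 923-fold higher than in the locus deletion. Fibromodulin (Fmod) was at 393 and 390 in KO, 1 and 1 in locus deletion and 5 and 4 in wild-type MEFs. All 3 were thus close to absent in wild-type MEFs as well, and Lum and Dcn are 2 of the fibroblast markers used above. Bgn, biglycan, was abundant in each line, at 48179 and 51348 in KO, 24001 and 27156 in locus deletion and 39527 and 35352 in wild-type MEFs (0.96, adjusted p = 7.77e-05).

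Of 31 matricellular and elastic fibre genes, 26 were higher in KO and 3 lower (median 0.88), and 20 and 17 were higher without KO library 1 and without KO library 2. Thbs2, thrombospondin-2, stood at 736 and 658 in KO, 13 and 16 in locus deletion and 10 and 15 in wild-type MEFs (5.50, SE 0.248, adjusted p = 3.17e-06). Fbn2, the fibrillin of developing elastic tissue, stood at 1162 and 1171 in KO, 10 and 11 in locus deletion and 226 and 233 in wild-type MEFs (6.67, SE 0.121, adjusted p = 1.18e-07). Fn1, fibronectin, the most abundant of the list, stood at 107072 and 114466 in KO, 45692 and 50081 in locus deletion and 58597 and 51556 in wild-type MEFs (1.21, SE 0.089, adjusted p = 2.9e-05). Metalloproteases and their inhibitors had 14 of 23 higher and 3 lower (median 0.82). Mmp2, a gelatinase, was at 2790 and 2889 in KO, 648 and 674 in locus deletion and 545 and 481 in wild-type MEFs (2.10), whereas Mmp10, a stromelysin, was at 114 and 116 in KO, 390 and 420 in locus deletion and 650 and 623 in wild-type MEFs (−1.81). Of the 13 genes of the insulin-like growth factor system, 7 were higher and 2 lower (median 0.49). The growth factor gene Igf1 was at 113 and 99 in KO, 0 and 0 in locus deletion and 3 and 3 in wild-type MEFs, alongside Igfbp5 above. Igfbp4 was at 141 and 103 in KO, 452 and 524 in locus deletion and 308 and 290 in wild-type MEFs (−2.0).

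Hox genes, which record the position of a cell along the body axis and limb, differed by cluster. Of 35 measured genes, including the non-coding Hotair and Hottip, 24 were higher in KO and 5 lower, with a median log2 difference of 4.0; 21 and 20 were higher without KO library 1 and without KO library 2, and 19 without either locus deletion library. Each measured gene of the HoxC cluster was read in KO MEFs and at or near 0 in the others. Hoxc6 led with 1250 and 1212 in KO, 0 and 0 in locus deletion and 3 and 1 in wild-type MEFs, at least 410-fold higher. Hoxc10, typical of hindlimb and lower trunk, had 107 and 110 in KO, and 0 and 0 in both locus deletion and wild-type MEFs. Hotair, a long non-coding RNA of the same cluster, had 132 and 126 in KO, 0 and 0 in locus deletion and 1 and 2 in wild-type MEFs. Transcripts of neighbouring Hox genes overlap, so the split of reads between neighbours is uncertain.

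HoxB, and HoxD other than Hoxd13, followed HoxC. Hoxb6 was at 358 and 368 in KO, 0 and 0 in locus deletion and 2 and 3 in wild-type MEFs, and Hoxd8 was at 314 and 340 in KO, 0 and 0 in locus deletion and 7 and 6 in wild-type MEFs. The end genes of HoxA and HoxD, which pattern the distal limb, went the other way. Hoxd13 stood at 681 and 664 in KO, 2234 and 2406 in locus deletion and 2487 and 2366 in wild-type MEFs (−1.78, SE 0.0651, adjusted p = 1.42e-06; −1.15 after centring), and Hoxa13 at 177 and 169 in KO, 444 and 447 in locus deletion and 679 and 636 in wild-type MEFs (−1.36, SE 0.0844, adjusted p = 1.27e-05). Locus deletion and wild-type MEFs thus shared a pattern of HoxA and Hoxd13 with HoxB and HoxC near 0, and KO MEFs had all 4 clusters. Evx2, a homeobox gene beside Hoxd13, was among the 8 genes lost in KO.

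**Figure D4:**
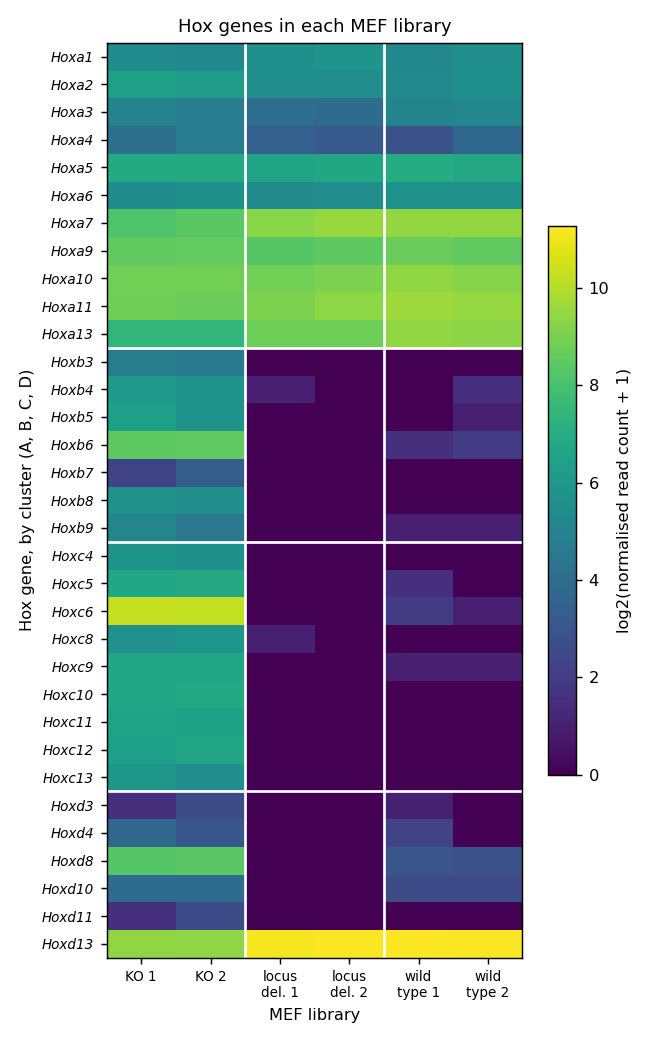
Log2(value + 1) of Hox genes by cluster (HoxA to HoxD) in the 6 MEF libraries, with KO left of locus deletion and wild type. HoxB and HoxC genes are bright in both KO libraries and dark, near 0, in the other 4, while Hoxd13 and Hoxa13 are lower in KO.

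Other transcription factors of position and organ identity differed in both directions, with 23 of 42 higher and 15 lower (median 0.53), and 15 and 17 higher without KO library 1 and without KO library 2. Tbx4, of the hindlimb, was at 210 and 215 in KO, 0 and 4 in locus deletion and 258 and 260 in wild-type MEFs, so KO and wild type were near each other in level and the locus deletion was apart. Foxf1, of the gut and lung mesoderm, was at 203 and 226 in KO, 3 and 1 in locus deletion and 9 and 3 in wild-type MEFs. Tbx4 thus departed from wild type in the locus deletion, and Foxf1 in the KO. Among the lower members, Pitx1 was at 41 and 48 in KO, 191 and 164 in locus deletion and 145 and 151 in wild-type MEFs (−1.97). Some higher members were near the floor in KO too, such as Zic1 (4 and 6), Wt1 (6 and 4) and Pax9 (5 and 2).

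Genes of the interferon response were higher in KO than in locus deletion MEFs. Of 34 measured, 27 were higher and 2 lower, with a median of 2.13, and 16 were higher when either KO library was left out. Gbp2, a guanylate-binding protein of cell-autonomous immunity, stood at 792 and 828 in KO, 5 and 4 in locus deletion and 23 and 23 in wild-type MEFs (7.21, SE 0.209, adjusted p = 5.92e-07). Ddx58, which encodes the RNA sensor RIG-I, stood at 1113 and 1138 in KO, 125 and 134 in locus deletion and 323 and 342 in wild-type MEFs (3.11, SE 0.0864, adjusted p = 5.04e-07). Its difference was 2.54 after centring. Many members were low, and Isg15 was at 52 and 50 in KO, 10 and 5 in locus deletion and 15 and 10 in wild-type MEFs, with its call lost without either KO library (adjusted p = 0.0559 and 0.0537). The exception among the abundant members was Ifit2, at 953 and 943 in KO, 1889 and 2140 in locus deletion and 2163 and 2233 in wild-type MEFs (−1.08, adjusted p = 1.87e-05; −0.69 after centring). Interferon genes themselves were not among the members of this list.

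Chemokines, cytokines and targets of NF-kappaB showed the same direction, with 25 of 30 higher and 3 lower (median 2.08), and 25 and 24 higher without KO library 1 and without KO library 2. C3, the central complement component, stood at 6793 and 6484 in KO, 73 and 108 in locus deletion and 201 and 180 in wild-type MEFs (6.21, SE 0.167, adjusted p = 4.5e-07). Il6, a cytokine of inflammation, was at 207 and 225 in KO, 2 and 5 in locus deletion and 5 and 4 in wild-type MEFs (5.68, SE 0.408, adjusted p = 2.59e-05). Lcn2, an iron-scavenging acute phase protein, was at 307 and 284 in KO, 0 and 0 in locus deletion and 4 and 9 in wild-type MEFs. In each of these genes the locus deletion and wild-type lines were low and the KO line high. Cxcl5, a neutrophil-attracting chemokine and the most abundant of the higher members, stood at 18538 and 18900 in KO, 1171 and 1357 in locus deletion and 2412 and 2844 in wild-type MEFs (3.89, SE 0.0964, adjusted p = 3.25e-07). Tslp, an epithelial-type cytokine, was the largest fall of the list, at 9 and 15 in KO, 64 and 64 in locus deletion and 80 and 77 in wild-type MEFs (−2.36). Of the 5 macrophage and blood cell markers measured, 2 were higher in KO and 1 lower: Lyz2 was at 30 and 43 in KO, 0 and 0 in locus deletion and 2 and 1 in wild-type MEFs, and Cd14 at 148 and 147 in KO, 476 and 532 in locus deletion and 388 and 367 in wild-type MEFs. Their part in the result was not tested.

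Genes of mitosis and the G2 phase were lower in KO than in locus deletion MEFs, mostly by less than 2-fold. Of 32 measured, 27 were lower and 1 higher, with a median of −0.63, and 17 were lower when either KO library was left out. Cenpf, a kinetochore protein, stood at 4096 and 3690 in KO, 9612 and 9141 in locus deletion and 6384 and 7359 in wild-type MEFs (−1.27, SE 0.0842, adjusted p = 1.74e-05). Ube2c, the ubiquitin carrier of the anaphase-promoting complex, was at 289 and 263 in KO, 737 and 841 in locus deletion and 362 and 419 in wild-type MEFs (−1.51; −0.87 after centring). Aurka, the spindle kinase Aurora A, was at 767 and 842 in KO, 2082 and 2330 in locus deletion and 1331 and 1314 in wild-type MEFs (−1.45; −0.81 after centring). Both lie on chromosome 2. Mki67, the proliferation marker Ki-67, differed little, at 24638 and 24126 in KO, 28591 and 30609 in locus deletion and 27110 and 29202 in wild-type MEFs (−0.28, adjusted p = 0.0106). The call of Mki67 was lost without KO library 1 (adjusted p = 0.13) and without KO library 2 (0.155).

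S phase genes split, with 13 of 32 higher and 14 lower (median 0.05). The 13 were 7 and 5 without KO library 1 and without KO library 2, and the 14 were 7 after chromosomes were centred. Mcm4, a subunit of the replicative helicase on chromosome 16, was at 6042 and 6337 in KO, 17061 and 18179 in locus deletion and 14743 and 14849 in wild-type MEFs (−1.51; −0.55 after centring), whereas Mcm2, a subunit of the same helicase on chromosome 6, was at 7552 and 7738 in KO, 4927 and 5686 in locus deletion and 7047 and 6729 in wild-type MEFs (0.53). The call of Mcm2 was lost without either KO library (adjusted p = 0.0543 and 0.0609). Tk1, thymidine kinase, was at 1075 and 1180 in KO, 2433 and 2574 in locus deletion and 1943 and 1943 in wild-type MEFs (−1.15; −1.12 after centring).

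Lists of stress pathway genes leaned in opposite directions. Among genes with a mean of at least 50, 28.5 percent were higher in KO and 34.0 percent lower. Of 34 genes of the integrated stress response and amino acid supply, 21 were higher in KO and 3 lower (median 0.32), and 14 and 13 were higher without KO library 1 and without KO library 2. Slc7a11, the cystine transporter, stood at 1054 and 1022 in KO, 368 and 337 in locus deletion and 123 and 125 in wild-type MEFs (1.56). Of 25 genes of the unfolded protein response in the endoplasmic reticulum, 5 were higher and 14 lower (median −0.31). Hspa5, the chaperone BiP, stood at 47909 and 48134 in KO, 100146 and 102284 in locus deletion and 71814 and 68554 in wild-type MEFs (−1.08; −0.44 after centring). Sdf2l1, a cofactor of BiP on chromosome 16, stood at 441 and 441 in KO, 2551 and 2442 in locus deletion and 1445 and 1443 in wild-type MEFs (−2.50; −1.54 after centring). Both genes were highest in the locus deletion and lowest in the KO. The cholesterol and fatty acid synthesis list had 2 of 33 higher and 16 lower (median −0.29), and 10 and 11 were lower without KO library 1 and without KO library 2.

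Factors of mRNA decay and of histone H3K4 methylation were examined because models of transcriptional adaptation involve both. Over all genes tested, 24.5 percent were higher in KO and 20.7 percent lower. Where the mean reached 50, the shares were 28.5 percent higher and 34.0 percent lower. Of 38 genes of nonsense-mediated and general mRNA decay, 9 were higher and 13 lower, with a median of −0.02. Without KO library 1 and without KO library 2, the counts were 0 and 1 higher and 8 and 9 lower. Upf1, the helicase at the centre of nonsense-mediated decay, was at 3778 and 3759 in KO, 3186 and 3317 in locus deletion and 4004 and 3495 in wild-type MEFs (0.21, adjusted p = 0.046), a call lost without KO library 1 (0.244), KO library 2 (0.232), locus deletion library 1 (0.199) and locus deletion library 2 (0.117), with chromosomes centred (0.529) and with the replicate number as a block (0.061). Xrn2, a nuclear exonuclease on chromosome 2, had the largest difference among the called members, at 3493 and 3429 in KO, 6262 and 7005 in locus deletion and 6034 and 6353 in wild-type MEFs (−0.94; −0.3 after centring). The COMPASS complexes and their partners had 6 of 17 higher and 6 lower (median 0.02), with 1 higher when either KO library was left out and 3 lower after chromosomes were centred.

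**Figure D5:**
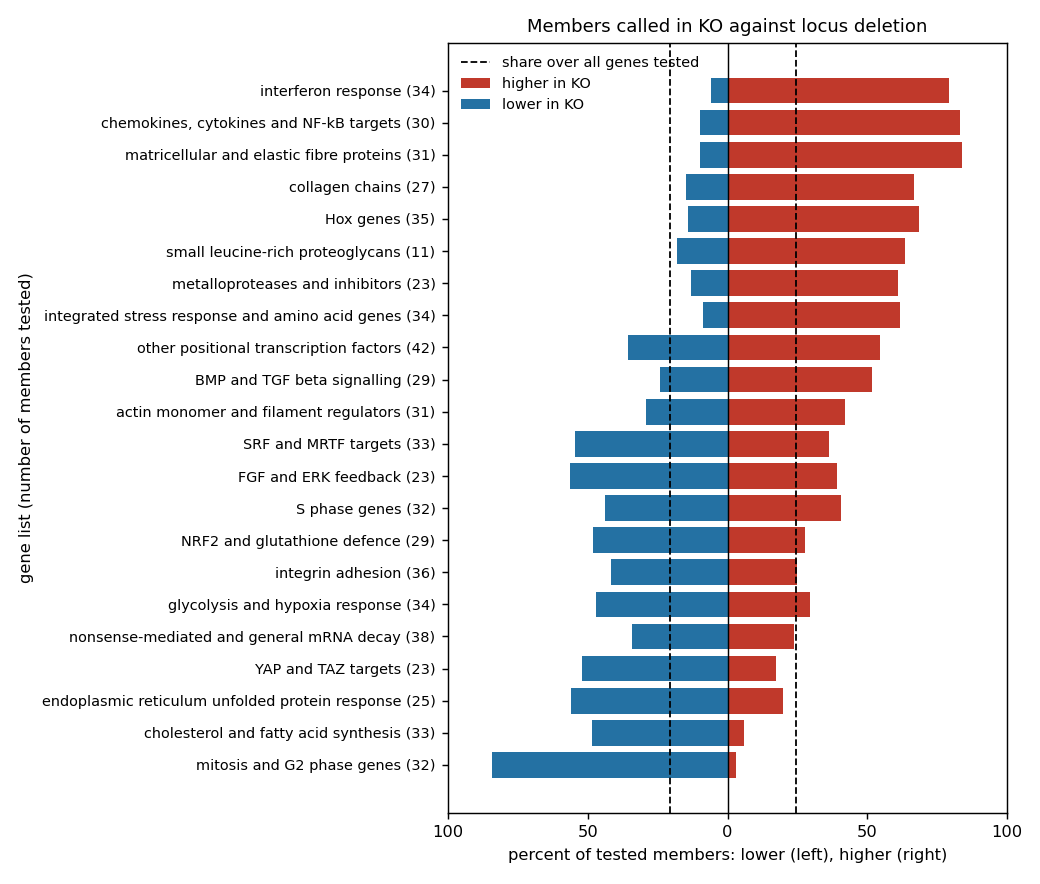
Percent of tested members higher in KO (to the right) and lower in KO (to the left) for 22 gene lists, from limma at an adjusted p below 0.05. Dashed lines mark the 24.5 percent of all genes that were higher and the 20.7 percent that were lower; matricellular, chemokine and interferon lists reach furthest right, and mitosis genes furthest left.

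Growth factor signalling differed in part. Of 23 genes of FGF signalling and its ERK feedback, 9 were higher and 13 lower (median −0.58), and 5 were higher when either KO library was left out. Etv5, an ERK-induced transcription factor, was at 153 and 173 in KO, 668 and 696 in locus deletion and 593 and 577 in wild-type MEFs (−2.06; −1.10 after centring), while its relative Etv1 was at 242 and 235 in KO, 0 and 1 in locus deletion and 323 and 379 in wild-type MEFs. Genes of BMP and TGF-beta signalling had 15 of 29 higher and 7 lower (median 0.62). Bmp5, a ligand, was at 224 and 201 in KO, 1 and 0 in locus deletion and 293 and 312 in wild-type MEFs. Inhbb, which encodes an activin subunit, was at 803 and 794 in KO, 8 and 5 in locus deletion and 7 and 8 in wild-type MEFs. WNT ligands and targets had 8 of 24 higher and 6 lower (median 0.63). Lef1, a transcription factor of the pathway, was at 293 and 302 in KO, 0 and 0 in locus deletion and 9 and 10 in wild-type MEFs, and Sfrp2, a secreted inhibitor, was at 5 and 9 in KO, 287 and 278 in locus deletion and 74 and 94 in wild-type MEFs (−5.19). Etv1 and Bmp5 were near 0 in the locus deletion alone, and Inhbb and Lef1 were high in the KO alone.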

How the data were processed

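Libraries were made with a SMARTer stranded kit from DNase-treated total RNA, per the labels. The submitters' processing notes name the build mm10 (GRCm38) and, among their tools, STAR 2.5.3a, featureCounts 1.6.0 and DESeq2 1.14.1, without roles. Each deposited value is a whole-number score, read here as gene counts that the authors scaled by 1 factor per library and rounded, so no model for raw counts was used. Use of strand, and of reads matching several genes, is not given in the sources used here. Of the 3 deposited tables, the one for MEFs was used.

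Genes with a mean of at least 1 were tested with limma 3.58.1 (R 4.3.3) on log2(value + 1), with all 6 MEF libraries in a group-means model, a trend in the mean, a two-sided test and Benjamini-Hochberg adjustment over 21589 genes. There were 3 residual and 4.57 prior degrees of freedom. "Higher" and "lower" as calls mean an adjusted p below 0.05. Log2 differences understate changes of low genes. Where a group was at 0, folds were computed with 3 reads per library, at the estimated worth of a read. Such bounds cover counting error alone, since PCR copies cannot be told from molecules. The test was checked on simulated data. Matches to the Actg1 mRNA were found with blastn 2.17.0 among GENCODE M21 transcripts. Other scalings, filters, pseudocounts and left-out libraries were tried.

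The genes named by rule were the actins, the 15 largest rises and falls among called genes with a mean of at least 50 in the higher group and no overlap, up to 4 called members of each list, called genes within 250000 bases of Actg1, and called Actg1-like genes, up to 6. Named outside the rule, after their values were seen, were Actr1b, Actr3, Bgn, Cenpf, Cfl1, Col4a1, Col4a2, Col4a5, Col6a2, Cxcl5, Ddx58, Etv5, Fn1, Hoxa13, Hoxc10, Hoxd13, Hspa5, Ifit2, Igfbp4, Isg15, Mcm2, Mki67, Pax9, Pfn1, Pitx1, Sema3e, Tdrd9, Tex11, Tmsb4x, Tslp, Upf1, Usp26, Vcl, Vim, Vwf and Zic1. The comparison, its members and the lists were chosen with earlier results of these data known.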

Additional observations from a re-analysis of the deposited data

How the results depend on the processing

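Leaving out 1 library at a time, 2946 to 4762 genes were higher in KO and 2680 to 3982 lower, with the lowest counts when a KO library was left out, which leaves 1 KO library and assumes that it varies like the others. The other settings gave 5246 higher and 4738 lower (TMM scaling), 4420 and 4453 (mean of at least 10), 5285 and 4467 (no filter), 4335 and 3523 (no trend), 4768 and 3961 (KO and locus deletion libraries alone), 5409 and 4567 (pseudocount of 5), 6249 and 3967 (scaled without genes over 1 percent), and 5311 and 3744 (chromosomes centred, added after seeing the data). Whether same-numbered libraries form pairs could not be settled, since each group has a single replicate difference. Deviations from the group means of same-numbered libraries correlated at 0.214 (KO and locus deletion), −0.302 (KO and wild type) and −0.211 (locus deletion and wild type). With the replicate number as a block, 5099 were higher and 4322 lower. Actg1, Actg2, Acta1 and Acta2 kept their calls and directions under every setting run. Actb passed with TMM scaling (−0.22) and with chromosomes centred (−0.49). Centring turned Lrrc58 round (0.51), as its construction allows for a gene of chromosome 16, and brought Hdac1, on chromosome 4, to −0.09. Of 216 named genes, 183 to 216 kept direction and side of the threshold by setting, the fewest without KO library 1. A low mean limits the precision of genes near the floor, and with 2 libraries a group small differences may be missed.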

Other observations

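Imprinted genes, which are read from 1 parental copy, included some of the sharpest differences without a shared direction. Of 21 measured, 8 were higher in KO than in locus deletion MEFs and 5 lower (median −0.04), and without either KO library 4 were higher and 3 lower. Plagl1, a zinc finger regulator of growth, stood at 315 and 306 in KO, 3 and 0 in locus deletion and 78 and 75 in wild-type MEFs. Dio3, a thyroid hormone deiodinase, stood at 63 and 68 in KO, 1 and 0 in locus deletion and 1 and 0 in wild-type MEFs. Snrpn, a splicing protein gene, stood at 5 and 0 in KO, 202 and 225 in locus deletion and 61 and 74 in wild-type MEFs. The KO was highest for Plagl1 and Dio3, and the locus deletion for Snrpn.

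Germline genes, which most somatic cells keep silent, had 9 of 21 higher in KO and 1 lower (median 0.96), and 6 and 7 higher without KO library 1 and without KO library 2; the list was added after the data were seen. Nxf7, a testis-expressed relative of the mRNA export factor genes on the X chromosome, stood at 481 and 524 in KO, 0 and 0 in locus deletion and 4 and 2 in wild-type MEFs. Tex101, a germ cell surface protein, was at 108 and 121 in KO, 0 and 0 in locus deletion and 3 and 0 in wild-type MEFs. Other higher members were near the floor in KO too, among them Tdrd5 (7 and 4), Tex11 (6 and 4), Tdrd9 (3 and 6) and Usp26 (2 and 5). Each of these was listed at 0 in both locus deletion libraries. Over all genes tested, 24.5 percent were higher in KO and 20.7 percent lower. Mga, described above as nearly lost in KO, belongs to the PRC1.6 complex, a list of 15 with 3 higher and 5 lower (median −0.13), also added after the data were seen. E2f6, another subunit, was at 137 and 153 in KO, 220 and 213 in locus deletion and 502 and 487 in wild-type MEFs (−0.58, adjusted p = 0.00247).

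The lists of the other cytoskeletal filaments are to be read beside the shares of all genes. Among genes with a mean of at least 50, 28.5 percent were higher in KO and 34.0 percent lower. Intermediate filament genes had 2 of 14 higher and 7 lower (median −0.3). Vim, the vimentin gene, stood at 41304 and 43759 in KO, 89417 and 101228 in locus deletion and 126213 and 129947 in wild-type MEFs (−1.16, SE 0.083, adjusted p = 2.52e-05; −0.52 after centring), so both mutants were below wild type and the KO lowest. Vim lies on chromosome 2, whose median was −0.63. Tubulin isotypes had 6 of 15 higher and 5 lower (median −0.09). Tubb2b, a neuronal beta-tubulin, was at 649 and 621 in KO, 39 and 44 in locus deletion and 40 and 58 in wild-type MEFs (3.91), whereas the widely expressed Tubb4b, also on chromosome 2, was at 2317 and 2338 in KO, 5042 and 5782 in locus deletion and 4952 and 4736 in wild-type MEFs (−1.21; −0.57 after centring).

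Among guidance molecules, semaphorins, ephrins and their receptors had 12 of 33 higher and 9 lower (median 0.31), and 7 of each without either KO library. Sema3e, a repulsive ligand, stood at 283 and 279 in KO, 1409 and 1587 in locus deletion and 2475 and 2425 in wild-type MEFs (−2.41, SE 0.0749, adjusted p = 7.06e-07). Xist, the RNA that coats the inactive X chromosome, was read in every MEF library, at 42196 and 39269 in KO, 21646 and 17484 in locus deletion and 17764 and 18917 in wild-type MEFs (1.07, SE 0.102, adjusted p = 0.000105). Pfkp, an isoform of the committing enzyme of glycolysis, was at 834 and 883 in KO, 61 and 59 in locus deletion and 136 and 142 in wild-type MEFs (3.82), in a glycolysis and hypoxia list with 10 of 34 higher and 16 lower (median −0.19). Without KO library 1 and without KO library 2, that list had 4 higher each time and 9 and 8 lower. Hmga2, a chromatin protein of dividing embryonic cells, was at 2289 and 2367 in KO, 9837 and 11161 in locus deletion and 14169 and 14341 in wild-type MEFs (−2.17, SE 0.0695, adjusted p = 8.2e-07).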
